A study of Homo sapiens with 2 samples.

Results

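Mitosis and G2/M genes were followed in HEL cells, a human erythroleukemia line, as 40 genes fixed by their names among the 61806 Ensembl genes of the count table. All 40 also had a deposited FPKM value, among 13924 genes with one. Unmodified (WT) HEL cells received either 0.5% DMSO, the vehicle, or L1 at 1 µM, a diindolylmethane derivative, for 24 h. Bead-captured messenger RNA gave 1 library for each condition, with 32556872 counts in DMSO and 27135647 in L1. The labels do not say whether the L1 culture also held DMSO.

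Entry into mitosis is driven by CDK1 bound to cyclin A or cyclin B, which PLK1 and the CDC25 phosphatases help to switch on. The spindle then attaches to kinetochores built on CENPA chromatin, the checkpoint kinases hold back CDC20 until attachment is complete, and the anaphase-promoting complex ends mitosis by marking cyclin B and securin for destruction. Most of these genes are transcribed in late S phase, G2 and mitosis, so in erythroid leukemia cells, as in other dividing cells, their mRNA varies with the share of cells in those phases. In bulk RNA a different number of cells in a phase and a different amount of mRNA per cell cannot be told apart.

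Counts were scaled by edgeR's TMM method (the ratio of effective library sizes, DMSO over L1, was 1.16). The log2 ratio of L1 over DMSO is given for each gene with an exact 95% Clopper-Pearson interval. The interval covers counting error only. With 1 library per condition no test could be run, and no difference below has a replicate check. All 12 erythroid and megakaryocytic markers checked for HEL cells were detected in both libraries. GATA1 was at 131 FPKM in DMSO and 139 FPKM in L1. In the same order ITGA2B was at 222 and 226 FPKM and HBG2 at 759 and 883 FPKM. Not all 12 were this level, with 7 log2 ratios above 0 and 5 below. The lowest was ITGB3 at 48.3 and 29.2 FPKM (log2 ratio -0.73). The highest was HBG1 at 121 and 415 FPKM (log2 ratio 1.78). Among markers of T cells, B cells, epithelium and fibroblasts, CD3D, CD3E, MS4A1, EPCAM and KRT19 were at 0 counts in both libraries. CD79A had the most, 113 and 60 counts, followed by COL3A1 with 11 and 17 counts, and CD3G, CDH1, COL1A1 and COL1A2 had at most 6 counts in a library.

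As a group the members were neither higher nor lower in a uniform way. Their median log2 ratio was -0.12 (range -1.22 to 0.76), beside -0.028 over all 12365 genes with at least 100 counts in a library and -0.0040 over the 18123 genes with at least 10. Of the 40 members, 16 had a ratio above 0 and 24 below, that is 40% above, beside 46.4% of the genes with at least 100 counts. These signs depend a little on the scaling, since CCNA2 lay above 0 with total counts or upper quartile scaling and NUF2 lay below 0 with DESeq2 size factors. Past 2-fold, no member was higher and 1 was lower, HJURP. That is 2.5% of the members, beside 2.92% lower and 3.13% higher of the genes with at least 100 counts (4.83% and 7.12% of those with at least 10). Past 1.5-fold, 4 members were higher and 3 were lower, 10.0% and 7.5%, beside 7.38% and 8.22% of the genes with at least 100 counts (13.8% and 11.4% of those with at least 10). The higher members were CCNB1, KIF20A, CDC20 and PRC1. Over the alternatives compared, the number higher ranged from 2, when overlapping genes were summed, to 6. The lower members were HJURP, CDC25B and TOP2A, with 5 lower under DESeq2 size factors. At a smaller fold, L1 at least 25% above DMSO or at least 20% below it, 7 members were higher and 9 were lower, 17.5% and 22.5%, beside 15.9% and 19.9% of the genes with at least 100 counts (23.5% and 22.3% of those with at least 10). With DESeq2 size factors 14 members in place of 9 were at least 20% lower. The share of all genes was not computed under that scaling, so this count has nothing to be set beside. Under it the median over the genes with at least 10 counts was also lower, -0.035. With TMM scaling the members' share lay near the share of all genes at each fold, so these counts do not set the members apart. The 40 genes took 0.599% of all counts in DMSO and 0.598% in L1, and their median level was 24.6 FPKM in DMSO and 25.7 FPKM in L1. The order of the members by level differed between the libraries, and single members and pairs are described next by role.

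**Figure D1:**
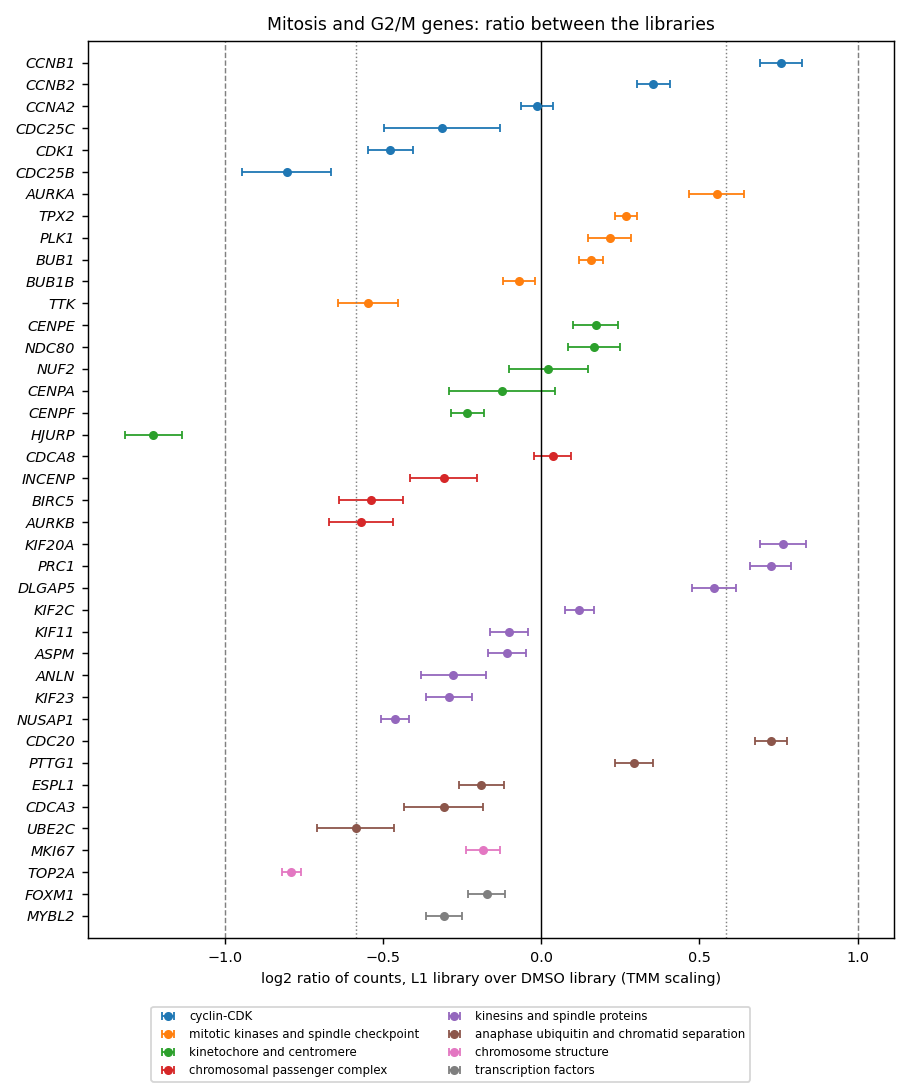
Log2 ratio of the L1 over the DMSO library (horizontal axis) for the 40 mitosis and G2/M genes, grouped by role in colour; bars are exact 95% intervals for counting error from 1 library per condition. Dotted and dashed lines mark 1.5-fold and 2-fold; CCNB1, KIF20A, CDC20 and PRC1 lie past 1.5-fold on the right, and HJURP lies past 2-fold on the left.

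The promoters of these genes are known for a shared arrangement, CCAAT boxes bound by NF-Y near a cell cycle genes homology region (CHR), where the MuvB complex and its partners FOXM1, MYBL2 and the DREAM proteins act. RefSeq promoter windows (GRCh38.p14, 250 bases before to 50 after a transcript start) were matched by symbol for 34 of the 40 members, and the windows of AURKA, BIRC5, FOXM1, TPX2, TTK and UBE2C were not used here. The windows from 200 bases before to the base before the start are shown for 3 members with ratios above 0 and 3 with ratios below 0 (ranks 3, 7 and 10 of the 40 by log2 ratio, then 33, 38 and 40). All 6 hold both motifs described here, and they are shown so that this arrangement can be read in members on either side of 0. Capitals mark TTTGAA (the CHR core searched) and CCAAT on either strand, so that TTCAAA and ATTGG are the same motifs on the other strand. The windows are CDC20 at chr1:43358781-43358980 on the plus strand, CCNB2 at chr15:59104946-59105145 on the plus strand, PLK1 at chr16:23678689-23678888 on the plus strand, CDK1 at chr10:60778278-60778477 on the plus strand (1 of 2 windows of this gene), TOP2A at chr17:40417897-40418096 on the minus strand and HJURP at chr2:233854536-233854735 on the minus strand. Each is written from 5′ to 3′ along its gene.
CDC20: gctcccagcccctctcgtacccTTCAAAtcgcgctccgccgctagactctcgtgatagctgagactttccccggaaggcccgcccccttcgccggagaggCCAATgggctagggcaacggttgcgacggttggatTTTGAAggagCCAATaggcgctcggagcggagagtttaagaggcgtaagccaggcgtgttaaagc
CCNB2: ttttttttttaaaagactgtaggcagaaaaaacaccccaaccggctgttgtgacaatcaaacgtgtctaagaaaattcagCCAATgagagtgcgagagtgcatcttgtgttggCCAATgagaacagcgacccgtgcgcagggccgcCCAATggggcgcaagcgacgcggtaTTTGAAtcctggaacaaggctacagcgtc
PLK1: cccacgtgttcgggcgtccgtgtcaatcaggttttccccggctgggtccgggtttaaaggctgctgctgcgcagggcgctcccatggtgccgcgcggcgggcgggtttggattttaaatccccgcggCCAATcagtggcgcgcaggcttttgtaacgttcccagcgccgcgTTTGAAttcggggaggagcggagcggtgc
CDK1: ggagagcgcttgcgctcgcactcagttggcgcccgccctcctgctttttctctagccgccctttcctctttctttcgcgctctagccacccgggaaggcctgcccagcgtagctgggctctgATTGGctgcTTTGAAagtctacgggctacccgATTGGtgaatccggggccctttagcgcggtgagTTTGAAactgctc
TOP2A: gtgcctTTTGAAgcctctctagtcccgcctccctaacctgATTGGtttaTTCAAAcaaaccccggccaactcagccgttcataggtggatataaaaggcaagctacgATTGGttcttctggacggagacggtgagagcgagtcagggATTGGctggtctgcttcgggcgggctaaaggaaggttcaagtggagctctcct
HJURP: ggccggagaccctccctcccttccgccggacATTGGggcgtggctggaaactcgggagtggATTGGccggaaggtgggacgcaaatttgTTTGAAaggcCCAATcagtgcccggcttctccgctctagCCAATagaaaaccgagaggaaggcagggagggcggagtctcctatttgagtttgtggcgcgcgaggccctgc

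The same letters stood in windows of members with higher and with lower ratios. TTTGAA occurred in 24 of the 34 members (70.6%), beside 18.2% of all 27305 genes with a window. CCAAT occurred in 27 of the 34 (79.4%), beside 39.7% of all genes. Within the members' windows a TTTGAA and a CCAAT match shared a base in 2 places. The median log2 ratio was -0.15 for the 24 members with TTTGAA (range -1.22 to 0.73) and 0.14 for the 10 without it (range -0.80 to 0.76). For CCAAT the medians were -0.12 over 27 members and 0.023 over 7. CDC20, with a ratio above 0, and HJURP and TOP2A, both among the 3 lowest ratios, each held both motifs. CCNB1, KIF20A, PTTG1, BUB1, CCNA2, AURKB and CDC25B held CCAAT without TTTGAA. The E2F forms TTTCGCGC, TTTGGCGC and TTTCCCGC occurred in 3 members, CDK1, NUSAP1 and CENPA (8.82%, beside 3.30% of all genes). A match of letters is a description of the window and does not show that a factor binds there.

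**Figure D2:**
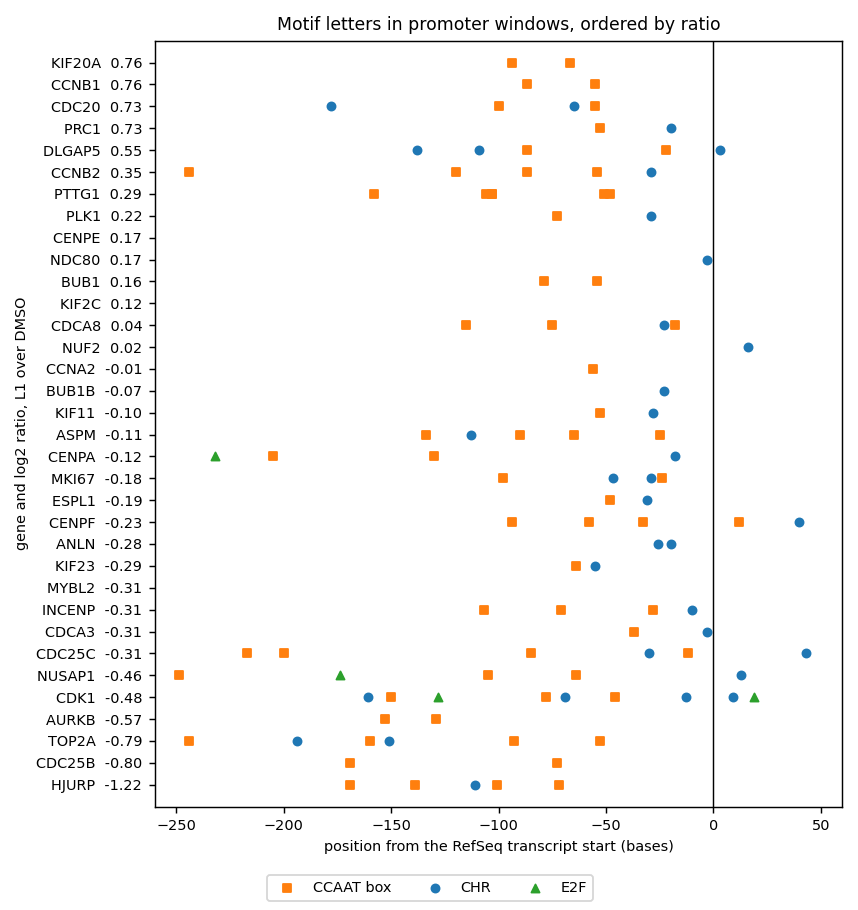
Position of each motif match from the RefSeq transcript start (horizontal axis, bases; several starts of a gene are overlaid) for 34 members, ordered from the highest log2 ratio at the top to the lowest at the bottom. TTTGAA (CHR, circles) and CCAAT (squares) matches stand in rows at both ends, in 24 and 27 of the 34 members.

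Among the cyclins and their kinase, cyclin B1 stood apart from cyclin A2. CCNB1 (ENSG00000134057, chromosome 5 from 69167010 to 69178245 on GRCh38, GENCODE release 29), the cyclin that takes CDK1 into the nucleus at mitotic entry, had 3170 counts with DMSO and 4624 with L1, which is 41.0 FPKM in DMSO and 69.3 FPKM in L1 (log2 ratio 0.76, 95% interval 0.69 to 0.82). It was among the 4 members past 1.5-fold in the higher direction. CCNB2 encodes the other main B-type cyclin and had 5609 and 6183 counts in the same order, at 64.1 and 81.9 FPKM (log2 ratio 0.35, 95% interval 0.30 to 0.41). CCNA2, the cyclin of S phase and early mitosis, had 6736 and 5759 counts at 77.1 and 76.4 FPKM, and its interval included 0 (log2 ratio -0.013, 95% interval -0.064 to 0.038). The kinase they bind lay on the other side of 0. CDK1 had 4172 and 2586 counts at 33.6 and 24.1 FPKM (log2 ratio -0.48, 95% interval -0.55 to -0.41).

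Of the CDC25 phosphatases, which remove inhibitory phosphates from CDK1 and its relatives, CDC25B and CDC25C are members. CDC25A, in the entry control list, had 5465 and 4708 counts at 41.5 and 41.4 FPKM, and its interval included 0 (log2 ratio -0.0020, 95% interval -0.059 to 0.054). CDC25B (ENSG00000101224, chromosome 20 from 3786772 to 3806121) starts this activation at the centrosomes and had 1265 counts with DMSO and 625 with L1 (10.2 FPKM in DMSO and 5.84 FPKM in L1; log2 ratio -0.80, 95% interval -0.94 to -0.66), the second lowest ratio of the 40. CDC25C had the lowest level of all members in both libraries, 5.68 FPKM in DMSO and 4.57 FPKM in L1, from 601 and 417 counts (log2 ratio -0.31, 95% interval -0.50 to -0.13). Its exons overlap those of FAM53C on the opposite strand over 293 bases, and with both genes summed the log2 ratio was 0.22, a change of sign. Most counts in that sum are from FAM53C (2470 with DMSO and 2659 with L1, log2 ratio 0.32), so it says little about CDC25C itself. Whether the counting used strand is not given in the sources used here. The median over these 6 cyclin, CDK1 and CDC25 genes was -0.16, with 2 above 0 and 4 below. With overlapping genes summed this median was 0.092, on the other side of 0, a value that rests on the CDC25C sum.

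Because both genes of a ratio are read from one library, the ratio between 2 members does not depend on how the libraries are scaled. Pairs of known partners were chosen after the values were seen, and the intervals of these ratios are normal (Wald) intervals from the 4 counts, for counting error only. FPKM of CCNB1 over CDK1 was 1.22 in DMSO and 2.87 in L1, a difference of 1.23 on the log2 scale, 95% interval 1.14 to 1.33. For CCNB2 over CDK1 the ratio was 1.91 in DMSO and 3.39 in L1, and for CCNA2 over CDK1 it was 2.30 in DMSO and 3.17 in L1. All 3 cyclins thus stood higher relative to CDK1 in the L1 library, and CCNB1 did so the most. CCNB1 over CCNA2 was 0.532 in DMSO and 0.907 in L1 (0.77 on the log2 scale, 95% interval 0.69 to 0.85), so the mRNA of cyclin B1 came close to that of cyclin A2 in the L1 library.

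**Figure D3:**
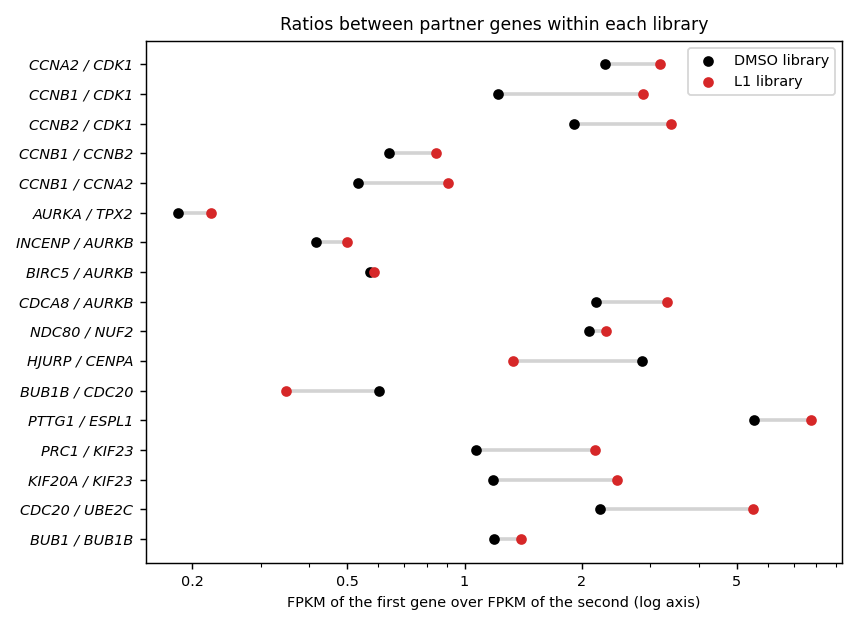
FPKM of one gene over that of its partner within the DMSO library (black) and within the L1 library (red), on a log axis, for 17 pairs with 1 library per condition. CCNB1 over CDK1 goes from 1.22 to 2.87, HJURP over CENPA from 2.85 to 1.33, and BIRC5 over AURKB lies at 0.572 and 0.585.

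The mitotic kinases and spindle checkpoint genes had a median of 0.19, the highest of the 8 role groups, with 4 of 6 above 0. AURKA, the kinase of centrosome maturation and spindle assembly, had 1917 counts with DMSO and 2429 with L1 at 20.6 and 30.2 FPKM (log2 ratio 0.55, 95% interval 0.47 to 0.64). TPX2, which activates AURKA on spindle microtubules, was the second most abundant member in both libraries, at 112 FPKM in DMSO and 135 FPKM in L1 (log2 ratio 0.27, 95% interval 0.23 to 0.30). PLK1, a kinase acting from mitotic entry to cytokinesis, had 3463 and 3472 counts at 22.9 and 26.6 FPKM (log2 ratio 0.22, 95% interval 0.15 to 0.29). These genes with values above 0 thus differed by less than 1.5-fold.
The checkpoint kinases were split. BUB1, which recruits the other checkpoint proteins to kinetochores, had 11938 and 11481 counts (59.6 and 66.4 FPKM; log2 ratio 0.16, 95% interval 0.12 to 0.19). BUB1B encodes BUBR1, part of the complex that holds back CDC20, and had 7086 and 5823 counts (49.9 and 47.6 FPKM; log2 ratio -0.070, 95% interval -0.12 to -0.020). TTK encodes MPS1, the kinase that starts checkpoint signalling, and had 2482 and 1465 counts (17.1 and 11.7 FPKM; log2 ratio -0.55, 95% interval -0.64 to -0.45). Of the 6, TTK alone was at least 20% lower and AURKA alone at least 25% higher. The ratio of BUB1 over BUB1B was 1.19 in DMSO and 1.40 in L1, a smaller difference than that of the cyclins over CDK1.

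The target of the checkpoint was on the higher side. CDC20 (ENSG00000117399, chromosome 1 from 43358955 to 43363203), the activator of the anaphase-promoting complex in mitosis, had 5290 counts with DMSO and 7547 with L1, at 82.7 FPKM in DMSO and 137 FPKM in L1 (log2 ratio 0.73, 95% interval 0.67 to 0.78). In order of FPKM it was rank 4 of the 40 members in DMSO and rank 1 in L1. Its transcripts share 20.3% of their 31-base words with other genes, most with the pseudogene CDC20P1, so some of its reads could have been placed elsewhere. The share passed 10% in 7 members and had a median of 3.12% over the 40. Those not described elsewhere were FOXM1 (17.5%), AURKA (16.3%) and PLK1 (15.1%). BUB1B over CDC20 was 0.604 in DMSO and 0.348 in L1 (-0.80 on the log2 scale, 95% interval -0.87 to -0.72). UBE2C encodes the ubiquitin-conjugating enzyme that works with the same complex. It had 1522 and 875 counts at 37.2 and 24.8 FPKM (log2 ratio -0.59, 95% interval -0.71 to -0.46), at the edge of 1.5-fold lower. Members past a fold were counted with a prior count of 2, where the log2 ratio of UBE2C was -0.5845, just short of 1.5-fold. The activator and the enzyme lay on opposite sides of 0, with CDC20 over UBE2C at 2.22 in DMSO and 5.51 in L1.

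Genes of chromatid separation had smaller differences. PTTG1, securin, which keeps separase inactive, had 4551 and 4810 counts at 72.5 and 88.8 FPKM (log2 ratio 0.29, 95% interval 0.23 to 0.35). ESPL1, separase itself, which cuts cohesin at anaphase, had 3696 and 2796 counts at 13.1 and 11.5 FPKM (log2 ratio -0.19, 95% interval -0.26 to -0.12). Securin over separase mRNA was 5.54 in DMSO and 7.74 in L1. CDCA3, an adaptor of a ubiquitin ligase that acts at mitotic entry, had 1269 and 884 counts (log2 ratio -0.31, 95% interval -0.43 to -0.18), and 11.1% of its words are shared with another gene, mostly GNB3. Over these 5 genes of anaphase the median was -0.19.

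At the kinetochore and centromere the chaperone of CENPA was the member farthest from 0. HJURP (ENSG00000123485, chromosome 2 from 233833416 to 233854566), which places new CENPA at centromeres, had 3679 counts with DMSO and 1358 with L1, at 30.3 FPKM in DMSO and 13.0 FPKM in L1 (log2 ratio -1.22, 95% interval -1.32 to -1.13). It was the 1 member past 2-fold, as it was under each of the 11 alternatives compared for that count. CENPA, the histone H3 variant that HJURP carries, had 658 and 521 counts at 10.6 and 9.75 FPKM, and its interval included 0 (log2 ratio -0.12, 95% interval -0.29 to 0.044). Exons of CENPA share 138 bases on the same strand with SLC35F6, which had 1217 and 866 counts. With both genes summed the log2 ratio was -0.22, and most counts in that sum are from SLC35F6. HJURP over CENPA was 2.85 in DMSO and 1.33 in L1 (-1.10 on the log2 scale, 95% interval -1.29 to -0.91).
NDC80 and NUF2 encode partners in the complex that grips microtubules. NDC80 had 2456 and 2380 counts at 21.7 and 24.4 FPKM (log2 ratio 0.17, 95% interval 0.086 to 0.25), and NUF2 had 1116 and 978 counts at 10.4 and 10.6 FPKM (log2 ratio 0.023, 95% interval -0.10 to 0.15). NDC80 over NUF2 was 2.08 in DMSO and 2.30 in L1, and the interval of that difference included 0 (0.15 on the log2 scale, 95% interval -0.0031 to 0.29). CENPE, the kinetochore motor that moves chromosomes to the spindle equator, had 3346 and 3252 counts (log2 ratio 0.17, 95% interval 0.10 to 0.24). CENPF, a large kinetochore protein of G2 and mitosis, had 6973 and 5117 counts (log2 ratio -0.23, 95% interval -0.29 to -0.18). Over the 6 genes the median was -0.050, with 3 above 0 and 3 below.

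The chromosomal passenger complex, which corrects faulty attachments and guides cytokinesis, had 3 of 4 genes below 0 and a median of -0.42. AURKB, its kinase, had 2193 counts with DMSO and 1275 with L1 at 30.8 and 20.7 FPKM (log2 ratio -0.57, 95% interval -0.67 to -0.47). BIRC5, survivin, which targets the complex to centromeres, had 2135 and 1270 counts at 17.6 and 12.1 FPKM (log2 ratio -0.54, 95% interval -0.64 to -0.44). BIRC5 over AURKB was 0.572 in DMSO and 0.585 in L1, with an interval that included 0 (0.033 on the log2 scale, 95% interval -0.11 to 0.17), so these mRNAs stood in nearly the same proportion to each other in both libraries. INCENP, the scaffold, had 1811 and 1262 counts (log2 ratio -0.31, 95% interval -0.41 to -0.20). CDCA8, borealin, was the most abundant of the 4, at 66.9 FPKM in DMSO and 68.6 FPKM in L1, and its interval included 0 (log2 ratio 0.037, 95% interval -0.021 to 0.095).

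Kinesins and spindle proteins spread in both directions around a median of -0.10, with 4 of 9 above 0. KIF20A (ENSG00000112984, chromosome 5 from 138178719 to 138187715), a motor of the central spindle in cytokinesis, had 2578 counts with DMSO and 3776 with L1 at 21.1 and 35.7 FPKM (log2 ratio 0.76, 95% interval 0.69 to 0.84), the highest ratio of the 40. Its exons overlap those of CDC23 over 68 bases and of BRD8 over 132 bases on the opposite strand. With all 3 genes summed the log2 ratio was 0.28. Most counts in that sum are from CDC23 (3223 with DMSO and 2752 with L1) and BRD8 (3754 and 3482). PRC1 (ENSG00000198901, chromosome 15 from 90966038 to 90995629), which bundles the microtubules of the central spindle, had 3349 counts with DMSO and 4776 with L1 at 19.1 and 31.5 FPKM (log2 ratio 0.73, 95% interval 0.66 to 0.79). This value is uncertain. The gene AC068831.7 shares 3181 exon bases with PRC1 on the same strand and its counts were 5657 with DMSO and 2222 with L1 (log2 ratio -1.14). Summed over PRC1 and its overlapping genes the counts were 9098 and 7114, a log2 ratio of -0.14, which has the opposite sign. Among the 31-base words of PRC1, 56.4% are shared.
DLGAP5 encodes HURP, which stabilises the fibres that hold kinetochores, and had 3004 and 3785 counts at 26.3 and 38.4 FPKM (log2 ratio 0.55, 95% interval 0.48 to 0.62). KIF2C, a kinesin that takes microtubules apart at centromeres, had 8012 and 7514 counts (log2 ratio 0.12, 95% interval 0.075 to 0.17). KIF11, the motor that pushes spindle poles apart, had 5071 and 4077 counts (log2 ratio -0.10, 95% interval -0.16 to -0.042). KIF2C and KIF11 thus lay close to 0. ASPM, which focuses the poles, had 4868 and 3897 counts (log2 ratio -0.11, 95% interval -0.17 to -0.047). KIF23, a motor of the same central spindle as KIF20A, had 3725 and 2624 counts (log2 ratio -0.29, 95% interval -0.37 to -0.22), and ANLN, anillin of the cleavage furrow, had 1857 and 1321 counts (log2 ratio -0.28, 95% interval -0.38 to -0.18). KIF20A over KIF23 was 1.18 in DMSO and 2.46 in L1 (1.06 on the log2 scale, 95% interval 0.95 to 1.16), so these genes of one structure did not differ alike. NUSAP1, which bundles spindle microtubules around chromatin, had 10559 and 6612 counts at 92.1 and 66.8 FPKM (log2 ratio -0.46, 95% interval -0.51 to -0.42). Of its words 61.6% are shared with another gene, mostly AC087721.2, which had 0 counts in both libraries.

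TOP2A was the most abundant member in DMSO and had the largest difference in raw counts of the 40. TOP2A (ENSG00000131747, chromosome 17 from 40388516 to 40417950), the topoisomerase that untangles chromosomes before they separate, had 27005 counts with DMSO and 13486 with L1. Its level was 133 FPKM in DMSO and 77.1 FPKM in L1 (log2 ratio -0.79, 95% interval -0.82 to -0.76), and its rank among the 40 was 1 in DMSO and 5 in L1. None of its 31-base words is shared with another gene of the annotation. MKI67, the Ki-67 protein that coats mitotic chromosomes and is used as a marker of dividing cells, had 6565 and 4988 counts at 16.1 and 14.2 FPKM (log2 ratio -0.18, 95% interval -0.24 to -0.13). TOP2A and MKI67 were thus both below 0, TOP2A past 1.5-fold and MKI67 within 20%. The members that encode transcription factors, FOXM1 and MYBL2, were both below 0. FOXM1 had 5403 and 4139 counts at 34.6 and 30.7 FPKM (log2 ratio -0.17, 95% interval -0.23 to -0.11), and MYBL2, which encodes B-MYB, had 6075 and 4238 counts at 68.8 and 55.7 FPKM (log2 ratio -0.31, 95% interval -0.36 to -0.25).

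**Figure D4:**
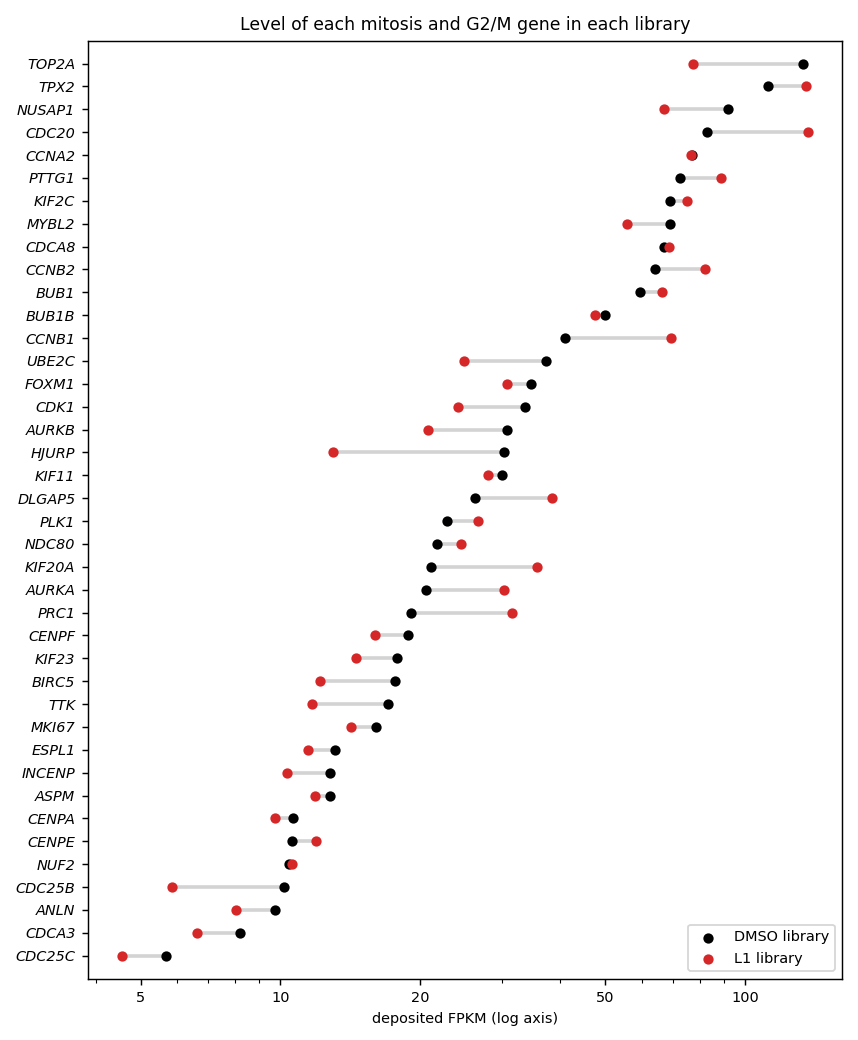
Deposited FPKM of each of the 40 genes in the DMSO library (black) and the L1 library (red), on a log axis, ordered by the DMSO value, with 1 library per condition. TOP2A, at 133 in DMSO and 77.1 in L1, and CDC20, at 82.7 and 137, hold the first rank in DMSO and in L1, respectively.

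A further 149 entries in 6 lists covered other genes of mitosis, of which 148 had at least 10 counts. Their median was -0.036, with 4 past 2-fold on the higher side and 2 on the lower (2.70% and 1.35%). These shares were no more than those of all genes, 7.12% and 4.83% with at least 10 counts and 3.13% and 2.92% with at least 100. Other mitotic kinesins and cytokinesis genes had the highest median, 0.12 over 36 genes. In it 21 genes (58.3%) were above 0, beside 46.4% of all genes with at least 100 counts. In that list 3 genes (8.33%) were past 1.5-fold higher, and none was past 1.5-fold lower. Of all genes, 7.38% with at least 100 counts and 13.8% with at least 10 were past 1.5-fold higher. The 3 genes of the list were DEPDC1 (1521 and 2362 counts, log2 ratio 0.85), HMMR (2699 and 3647 counts, log2 ratio 0.65), a spindle protein, and ARHGAP11A (1510 and 1972 counts, log2 ratio 0.60). These names were chosen after the values were seen. Subunits of the anaphase-promoting complex and its regulators had a median of 0.039 over 17 genes, and none was past 2-fold. MuvB and DREAM genes had a median of 0.045 over 14, and condensin and cohesin genes -0.081 over 23, with none past 1.5-fold in either list.
Other kinetochore and checkpoint genes had the lowest median of the 6 lists, -0.14 over 37 genes, with 26 below 0. The 11 above 0 were 29.7% of the list, beside 46.4% of all genes with at least 100 counts. SPC24 and SPC25 belong to the same complex as NDC80 and NUF2, and were named after their values were seen. SPC24 had 1598 and 775 counts (log2 ratio -0.83, 95% interval -0.96 to -0.71) and SPC25 had 1735 and 1299 counts (log2 ratio -0.20, 95% interval -0.31 to -0.100), so this complex did not differ alike in its subunits. In this list NSL1 (614 and 1095 counts, log2 ratio 1.05) and ZWILCH (2163 and 4036 counts, log2 ratio 1.11) were past 2-fold higher, and MIS12 (1558 and 460 counts, log2 ratio -1.55) and CENPN (1822 and 755 counts, log2 ratio -1.06) past 2-fold lower. NSL1 and MIS12 are subunits of the same kinetochore complex and lay on opposite sides. Exons of ZWILCH, MIS12 and CENPN overlap other expressed genes on the opposite strand, and summed with these the log2 ratios were -0.029, -0.86 and -0.77, none past 2-fold. Most of the 112865 counts with DMSO and 95442 with L1 in the ZWILCH sum are from genes other than ZWILCH. Among genes of mitotic entry control the median was -0.081 over 21, and past 2-fold higher were CDKN1A (140 and 267 counts, log2 ratio 1.14), the p21 inhibitor of cyclin-dependent kinases, and GADD45B (11 and 80 counts, log2 ratio 3.08), which falls under the 100 counts asked of named genes.

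Genes of DNA replication and the G1/S transition, the cell cycle genes nearest to these in kind, lay more to one side. Of 50 such genes 46 were below 0, with a median of -0.32, beside 24 of the 40 mitosis members and their median of -0.12. Those above 0 were 8.0% of the list, beside 46.4% of the genes with at least 100 counts. The spread was wider among the mitosis members, with an SD over genes of 0.458 against 0.337. That SD was 0.449 over the other mitosis lists and 0.632 over all genes with at least 100 counts. Past 2-fold in the G1/S list were GINS1, higher (631 and 1122 counts), and E2F8, lower (897 and 379 counts). That is 2.0% in each direction, beside 3.13% higher and 2.92% lower of the genes with at least 100 counts. The difference between the lists could not be tested with 1 library per condition.

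**Figure D5:**
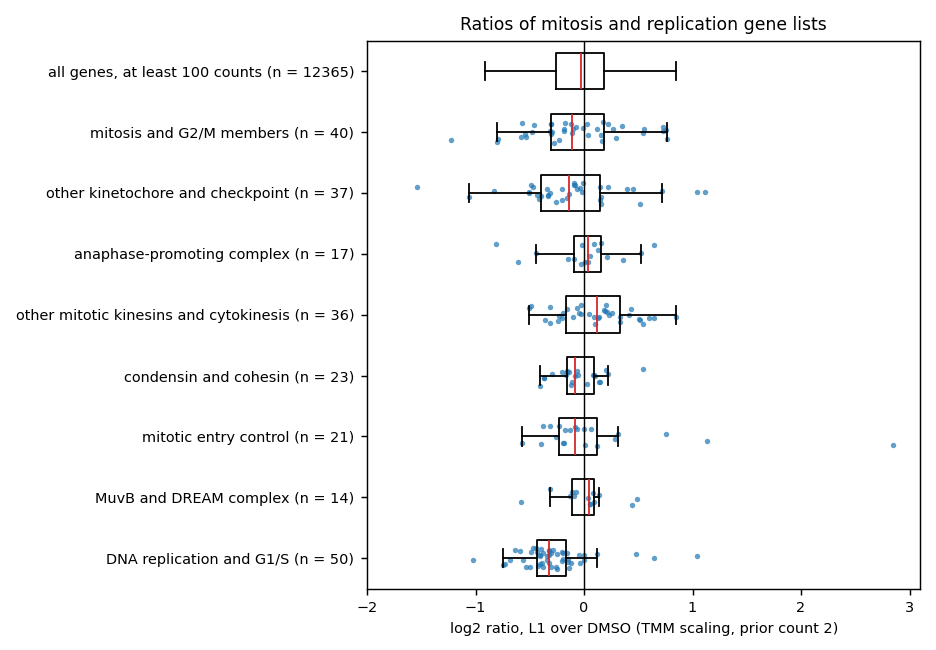
Log2 ratios of L1 over DMSO (horizontal axis) for all genes with at least 100 counts, the mitosis and G2/M members, 6 other mitosis lists and the G1/S list; boxes show quartiles with the median in red, whiskers reach 1.5 box lengths, and points are genes. The members' median is -0.12, and the G1/S list, with a median of -0.32, lies mostly left of 0.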

How the data were processed

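HEL cells treated for 24 h with 0.5% DMSO or 1 µM L1 gave 1 library each. The submitters' processing notes name fastp 2.0, HISAT2 2.1.0, StringTie and hg38. The annotation and the counting program are not given in the sources used here. The authors deposited raw read counts for 61806 Ensembl genes, and FPKM values for 13924 genes. The deposited FPKM ratios equalled those of the TMM-scaled counts for all members (log2 difference at most 5.85e-10), so they are no second measurement.

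TMM factors came from edgeR 4.0.16 and size factors from DESeq2 1.42.0 (R 4.3.3). Other steps used Python 3.11.15, numpy 2.4.6, pandas 2.3.3, scipy 1.17.1 and matplotlib 3.10.9. A prior count of 2 was added for ratios over 18123 genes (at least 10 counts in a library) or 12365 (at least 100). Single-gene ratios had no prior count. No test was run. Positions, exon overlaps and 31-base words were read from GENCODE release 29 (GRCh38; 58254 identifiers matched), and symbols outside the FPKM files from a table of gene names. Named genes were all 40 members and, in each other list, genes past 2-fold with at least 100 counts. Others (DEPDC1, HMMR, ARHGAP11A, GADD45B, SPC24, SPC25 and CDC25A) were named after their values were seen. The members and lists were chosen with earlier results of these data known. The calculations were tested on simulated data. A marker gene of another cell type is not reported here. Alternatives were 3 other scalings, FPKM values, prior counts of 0.5 and 5, other count minimums, whole intervals past a fold and, added after seeing the data, overlapping genes summed or left out.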

Additional observations from a re-analysis of the deposited data

How the results depend on the processing

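No paired analysis was possible because DMSO and L1 are single libraries. The members' median of -0.12 ranged from -0.15 to -0.066 over 11 alternatives, including the 29 members that overlap no other gene with 10 counts. Of the medians of the role groups and other lists, that of the cyclin, CDK1 and CDC25 genes alone lay on the other side of 0 under an alternative (0.092 with overlapping genes summed). That alternative was not computed for the medians of the other lists. With DESeq2 size factors, 5 members were past 1.5-fold lower instead of 3, and 14 were at least 20% lower instead of 9. The shares of all genes past a fold were computed with TMM scaling only, so these counts do not set the members apart. Scaling moved the median of all genes by less than 0.1. With overlapping genes summed, 2 members were past 1.5-fold higher instead of 4, CDC25C changed sign to 0.22 and PRC1 to -0.14. The largest number past 1.5-fold higher over the alternatives was 6. Most counts in the CDC25C and KIF20A sums are from the overlapping genes. Total counts and upper quartile scaling each left 0 G1/S genes past 2-fold lower instead of 1. With log2(FPKM + 1), which shrinks low genes, 1 other mitosis gene was past 2-fold higher and 1 lower, and 0 G1/S genes in either direction. The cause of these differences was not tested. The other counts past a fold stayed within 1.5 times of the values reported. Of the 40 members' ratios, 5 left their counting interval with total counts, 3 with upper quartile scaling, 1 with DESeq2 size factors and 4 with overlapping genes summed. With 1 library per condition, variation between cultures was not tested, and the fewest counts of a member were 417.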
